A study of Homo sapiens with 18 samples.

Results

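The genes described here encode the matrix metalloproteinases (MMP), their tissue inhibitors (TIMP), the membrane-anchored ADAM proteins and the secreted ADAMTS proteins. They were chosen by symbol: 69 of the 60642 gene symbols in the count table matched the 4 family names, and 35 of these had 10 or more counts in 3 or more libraries. The 35 members comprised 11 of 24 MMP genes, 4 of 4 TIMP genes, 10 of 22 ADAM genes and 10 of 19 ADAMTS genes. MMPs cut collagens, other matrix proteins and cell-surface proteins. Membrane-type MMPs do so at the plasma membrane, and TIMPs block the catalytic site of MMPs and, to differing degrees, of ADAM and ADAMTS enzymes. ADAMs that keep the catalytic zinc site release growth factors and receptors from the cell surface, and ADAMTS enzymes process procollagen, proteoglycans and von Willebrand factor. In colorectal tumours MMP7 is typically made by the tumour epithelium itself, whereas several other MMPs come mainly from the stroma.

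RNA was sequenced in 18 libraries of 2 human colorectal cancer lines, 3 libraries in each of 6 groups. HT-29 iZEB1 is an HT-29 line that carries a doxycycline (DOX) inducible ZEB1, a repressor of epithelial genes. It was studied without DOX in DMSO, with DOX in DMSO, with DOX and RepSox (by its label), and without DOX in RepSox. SW620, a line derived from a lymph node metastasis, was studied in DMSO and in RepSox. RepSox inhibits ALK5, the type I receptor of TGF-β, and cells had 10 µM of it for 24 h. The DOX dose was 1 µg/ml. The labels give 24 h of DOX and the series design 48 h. Parental HT-29 with DOX was not analysed here, so that effects of DOX itself and of ZEB1 cannot be told apart. The labels do not say whether the HT-29 iZEB1 line is a single clone, or whether replicates were separate cultures, and p-values then measure the spread between these libraries only.

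Library totals ran from 36.5 to 39.8 M counts. ZEB1, the induced gene, had 7.90, 7.38 and 10.4 CPM (counts scaled to a library of 1 M counts) without DOX in DMSO, 372, 385 and 376 CPM with DOX in DMSO, 5.04, 5.38 and 5.73 CPM in RepSox alone, and 14.6, 15.9 and 17.4 CPM in the libraries labelled DOX with RepSox. ZEB1 was therefore 23.8-fold lower in the libraries labelled DOX with RepSox than with DOX in DMSO (log2 change -4.57 ± 0.098 SE, edgeR quasi-likelihood test, adjusted p = 4.02e-16). Its level there was far below that of the other group labelled DOX, and 2.98-fold above that with RepSox alone (edgeR adjusted p = 1.37e-07). Whether these libraries had DOX as labelled, and what set this level, was not tested. Every result below that uses them rests on that label. CDH1, the epithelial cadherin, averaged 470, 232, 350 and 385 CPM in the untreated, DOX, labelled DOX with RepSox, and RepSox groups, and 9.97 and 18.2 CPM in SW620 in DMSO and RepSox. The summed level of 10 colon epithelial markers was 8216 to 9379 CPM without DOX and 4333 to 4782 CPM with DOX in DMSO, 9828 to 10678 CPM in the libraries labelled DOX with RepSox and 9266 to 9592 CPM with RepSox alone. KRT8 and KRT18 made up most of the sum (means of 5662 and 1749 CPM without DOX), and CDH17 averaged 1.32 CPM without DOX and 8.42 CPM with DOX in DMSO. The median over the 10 markers was 126 CPM without DOX and 62.0 CPM with DOX in DMSO. It remained at 62.7 CPM in the libraries labelled DOX with RepSox and 61.7 CPM with RepSox alone. In SW620 the sum was 5582 to 5941 CPM in DMSO and 7987 to 8545 CPM in RepSox. CDX1 was at 0 counts in every SW620 library and averaged 0.09 to 0.40 CPM in the HT-29 groups. CDX2 averaged 9.17 CPM in SW620 in DMSO and 0.34 CPM in untreated HT-29 iZEB1. Of 10 fibroblast markers, 4 to 6 were at 0 in each HT-29 group with summed levels of at most 1.47 CPM. In SW620 5 were at 0 and the sum was 7.28 to 13.3 CPM, and COL1A2, PDGFRA and POSTN were at 0 in both lines.

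The members span a wide range of depth. At the edge of the selection, MMP13 (collagenase 3) had 10 or more counts in exactly 3 libraries, all from HT-29, the lowest of them with 10. ADAMTS19, just outside, had 2 such libraries, and ADAMTS4 and MMP23A had 1 each. Another 16 of the 69 symbols were listed at 0 in all 18 libraries, among them MMP3, MMP8, MMP12, ADAMTS1 and ADAMTS5. Where a fold is given against a group at 0, a floor of 3 counts over that group was used. The gelatinases MMP2 and MMP9, and MMP1 and MMP10, never exceeded 4 counts in any library. After the filter on low counts 28 of the 35 members were tested within HT-29 iZEB1, 31 within SW620 and 35 between the lines.

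ZEB1 binds E-boxes of the sequence CAGGTG, read as CACCTG on the other strand, and the stretches upstream of members that fell with DOX are shown because these letters differ among them. Promoter windows of 300 bases (250 before and 50 after the RefSeq start, GRCh38.p14) were found for 23 of the 35 members. The E-box lay in 4 of the 6 windows of members lower with DOX in DMSO (MMP15, ADAM8, ADAM19 and ADAMTS17, not ADAM15 or MMP7), in 0 of 5 windows of members higher with DOX, and in 1 of 7 of members not called (ADAM17). It lay in 20.59% of all 35116 windows, and in 25.6% of 2627, 13.9% of 2392 and 18.6% of 5894 windows of all genes lower, higher and not called with DOX. A match describes letters in this window and not a bound site. For ADAM10, ADAM15, ADAM17, ADAMTS13, ADAMTS14, ADAMTS20, MMP11 and TIMP4 the GENCODE 29 gene begins outside the window. For these genes a match or its absence does not describe that start. The 250 bases before the start of ADAM8 (chr10:133276869-133277118, minus strand), ADAM19 (chr5:157575776-157576025, minus strand), ADAMTS17 (chr15:100341976-100342225, minus strand) and MMP7 (chr11:102530748-102530997, minus strand) are given 5′ to 3′ with motifs in capitals. For MMP15, whose GENCODE 29 gene begins 188 bases before the RefSeq start, the 30 bases holding both matches are shown (chr16:58025620-58025649, plus strand).
MMP15: CACCTGtcgggcctcggccgcccgCACCTG
ADAM8: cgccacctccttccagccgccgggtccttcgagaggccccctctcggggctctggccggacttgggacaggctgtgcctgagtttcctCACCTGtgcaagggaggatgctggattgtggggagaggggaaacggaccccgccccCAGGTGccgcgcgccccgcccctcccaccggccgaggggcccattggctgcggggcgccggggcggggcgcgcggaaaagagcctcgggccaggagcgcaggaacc
ADAM19: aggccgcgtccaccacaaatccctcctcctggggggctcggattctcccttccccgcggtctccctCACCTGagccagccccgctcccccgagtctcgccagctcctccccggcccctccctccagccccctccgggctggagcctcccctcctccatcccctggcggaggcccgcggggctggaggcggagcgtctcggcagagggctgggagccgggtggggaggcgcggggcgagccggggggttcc
ADAMTS17: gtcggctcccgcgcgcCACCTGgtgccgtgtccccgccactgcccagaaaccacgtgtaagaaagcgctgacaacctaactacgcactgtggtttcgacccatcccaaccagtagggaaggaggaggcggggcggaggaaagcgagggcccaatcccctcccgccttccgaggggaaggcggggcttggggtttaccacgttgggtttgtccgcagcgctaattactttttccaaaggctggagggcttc
MMP7: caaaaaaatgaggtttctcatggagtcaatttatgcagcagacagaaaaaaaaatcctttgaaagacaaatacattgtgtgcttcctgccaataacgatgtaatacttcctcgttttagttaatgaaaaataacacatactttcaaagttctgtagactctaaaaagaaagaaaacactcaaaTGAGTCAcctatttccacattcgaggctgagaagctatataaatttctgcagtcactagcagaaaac
The E-boxes began 134 and 110 bases before the start in MMP15, 162 and 106 in ADAM8, 184 in ADAM19 and 234 in ADAMTS17. In MMP7 the capitals mark an AP-1 sequence (TGAGTCA, or TGACTCA on the other strand) 67 bases before the start. MMP7 was the sole member of the 23 with that sequence, which 4.949% of all windows held.

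The comparison of DOX with no DOX in DMSO asks how the proteases differed when ZEB1 was induced. TIMP2, TIMP4 and MMP14 rose more than 2-fold, and MMP15, another membrane-type MMP, fell 1.93-fold. Of 28 members tested, 14 passed an adjusted p of 0.05, 8 higher and 6 lower, where 40.4% of 16978 genes passed (19.2% higher and 21.1% lower). The 8 that rose were TIMP2, TIMP4, MMP14, ADAM9, ADAM10, ADAM32, ADAMTS6 and ADAMTS13, and the 6 that fell were MMP15, MMP7, ADAM8, ADAM15, ADAM19 and ADAMTS17. The median log2 change was 0.01 over the members and 0.00 over all genes. Scaled to library totals alone, the split was 11 higher and 5 lower, and MMP7 lost its call (adjusted p = 0.0955, edgeR quasi-likelihood test). That scaling also moved the share of higher calls among all genes from 47.6% to 59.5%.

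TIMP2 (chr17:78852977-78925387, minus strand), which both inhibits MMPs and helps MMP14 activate pro-MMP2 at the cell surface, stood at 29.1, 27.0 and 31.4 CPM without DOX and at 72.0, 73.4 and 68.4 CPM with DOX in DMSO. With RepSox it stood at 16.1, 17.6 and 17.6 CPM in the libraries labelled DOX with RepSox and at 16.6, 16.7 and 18.2 CPM without DOX. The 3 DOX libraries in DMSO were above all other HT-29 libraries, and the RepSox groups overlapped each other below the untreated group. TIMP2 rose by 1.30 ± 0.073 (log2, SE) with DOX in DMSO (edgeR quasi-likelihood test, adjusted p = 8.28e-11). TIMP2 shares exon positions with AC022966.1 on the opposite strand and with CEP295NL, and reads of overlapping genes cannot be told apart here, since the strand setting of the counting is not given in the sources used here.

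MMP14 (chr14:22836557-22849027, plus strand), the collagen-cutting membrane-type enzyme MT1-MMP, stood at 7.05, 5.20 and 6.08 CPM without DOX and at 13.9, 16.0 and 15.5 CPM with DOX in DMSO. In RepSox it stood at 7.62, 8.21 and 7.28 CPM in the libraries labelled DOX with RepSox and at 7.49, 6.18 and 6.74 CPM without DOX. MMP14 was high in the DOX libraries in DMSO alone among the HT-29 groups. The rise with DOX in DMSO was 2.48-fold (log2 1.31 ± 0.115 SE, adjusted p = 3.47e-08, edgeR quasi-likelihood test).

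TIMP4 (chr3:12153051-12159351, minus strand) was less abundant, with 2.38, 2.32 and 2.20 CPM without DOX and 5.41, 5.36 and 4.92 CPM with DOX in DMSO. The libraries labelled DOX with RepSox held 2.96, 3.83 and 2.74 CPM and those with RepSox alone 3.27, 3.02 and 3.56 CPM, between the other groups and overlapping each other. The rise with DOX in DMSO was 2.28-fold (log2 1.19 ± 0.148 SE, adjusted p = 3.06e-06, edgeR quasi-likelihood test). TIMP4 lies within SYN2, and exons of the 2 genes overlap on opposite strands.

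TIMP1 (chrX:47582313-47586789, plus strand), the secreted inhibitor of most MMPs, did not pass this test. It stood at 96.4, 109 and 89.9 CPM without DOX and at 100, 141 and 103 CPM with DOX in DMSO. The groups overlapped, and 1 of the 3 DOX libraries was higher than the rest of HT-29 iZEB1 (log2 difference 0.23 ± 0.111 SE, adjusted p = 0.115, edgeR quasi-likelihood test). TIMP1 was called higher with library totals alone (0.0302), with no filter on low counts (0.0172) and without replicate 1 of the DOX group (0.0422, edgeR quasi-likelihood test). TIMP3, the matrix-bound inhibitor, had 0 counts in every HT-29 library but 1, which had 2, and was not tested in this line.

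MMP15 (chr16:58025566-58046901, plus strand), the membrane-type enzyme MT2-MMP, moved the other way. It stood at 122, 123 and 106 CPM without DOX and at 55.1, 66.7 and 59.6 CPM with DOX in DMSO. The libraries labelled DOX with RepSox held 135, 121 and 114 CPM and those with RepSox alone 148, 140 and 146 CPM. All 3 DOX libraries in DMSO were below the other 9 HT-29 libraries, while the group labelled DOX with RepSox overlapped the untreated group. The fall with DOX in DMSO was -0.94 ± 0.081 on the log2 scale (adjusted p = 2.46e-08, edgeR quasi-likelihood test).

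MMP7 (chr11:102520508-102530753, minus strand), the small matrilysin that lacks a hemopexin domain, stood at 35.6, 35.6 and 38.4 CPM without DOX and at 25.6, 31.9 and 32.3 CPM with DOX in DMSO. The libraries labelled DOX with RepSox held 42.1, 50.8 and 47.9 CPM and those with RepSox alone 50.8, 53.1 and 61.5 CPM. The untreated and DOX groups in DMSO did not overlap, and both lay below every RepSox library. MMP7 fell by 0.28 ± 0.096 on the log2 scale with DOX in DMSO (adjusted p = 0.0254, edgeR quasi-likelihood test). Without replicate 1 of the DOX group in DMSO the adjusted p was 0.15, and without replicate 3 of the untreated group 0.0875.

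**Figure D1:**
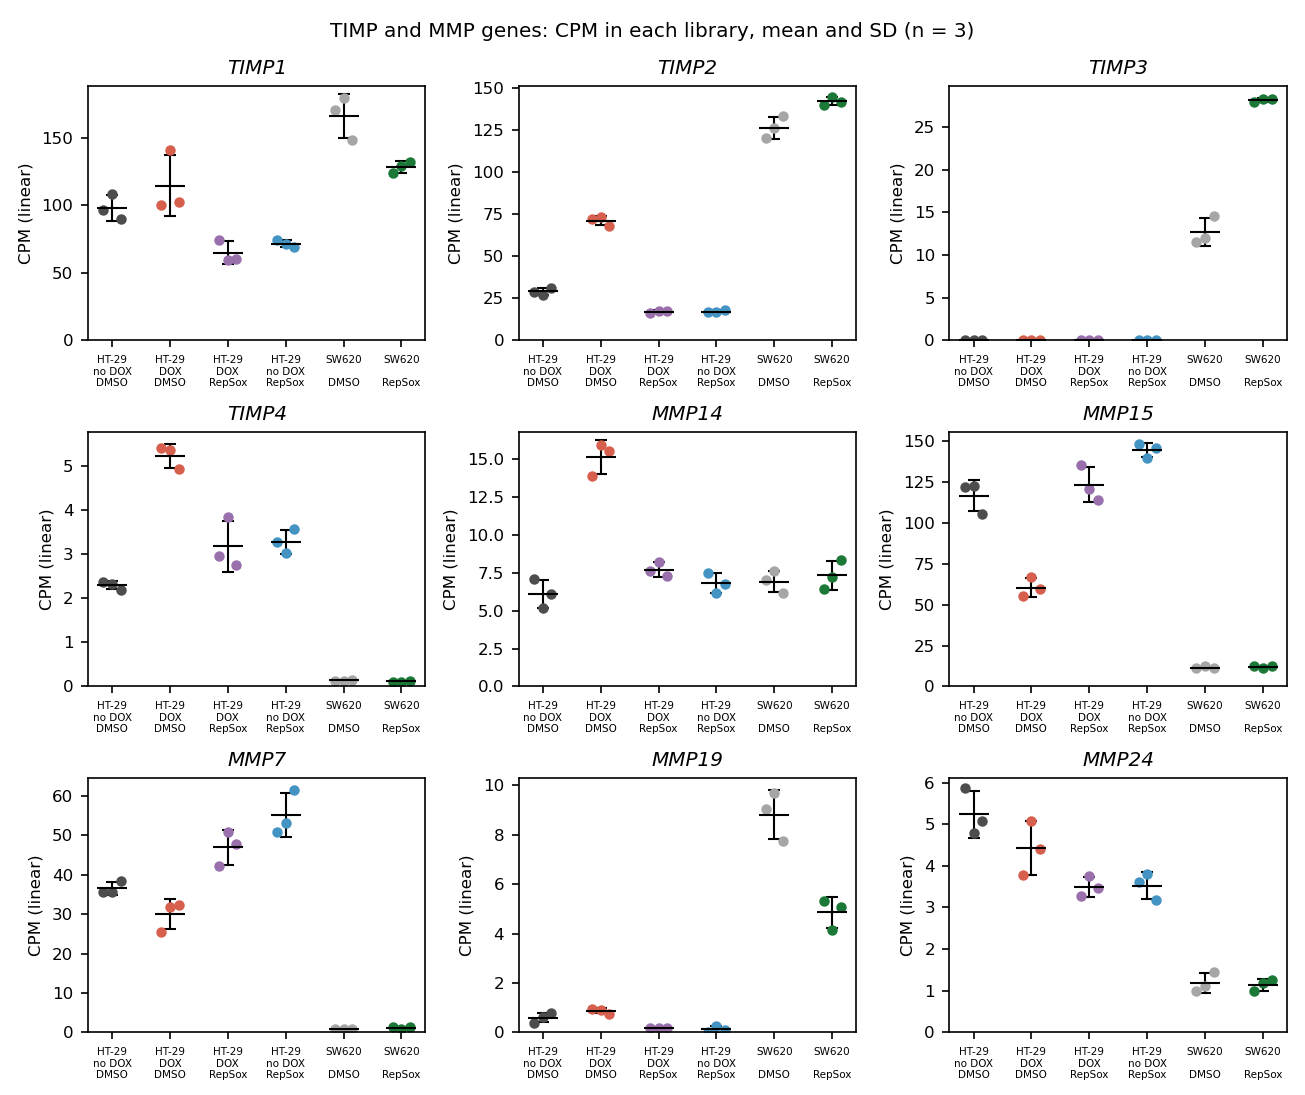
Points are CPM in each of the 18 libraries (linear axis from 0) for the 4 TIMP genes and 5 MMP genes, by group, with the mean and SD of 3 libraries as lines. TIMP2, TIMP4 and MMP14 were highest in HT-29 with DOX in DMSO among the HT-29 groups, MMP15 was lowest there, and TIMP3 was seen in SW620 at 11.6 to 28.3 CPM.

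The ADAM genes divided in direction. ADAM9, which sheds several surface proteins, stood at 303, 292 and 314 CPM without DOX and at 428, 402 and 402 CPM with DOX in DMSO, without overlap (1.36-fold higher, log2 0.44 ± 0.056 SE, adjusted p = 4.18e-06, edgeR quasi-likelihood test). ADAM10, the main sheddase of Notch receptors and E-cadherin, rose by 0.23 ± 0.067 on the log2 scale (271, 249 and 278 CPM against 334, 288 and 313 CPM, adjusted p = 0.00934, edgeR quasi-likelihood test). Its call was lost without replicate 2 of the untreated group (adjusted p = 0.0632) and without replicate 1 of the DOX group in DMSO (0.0586). ADAM17, the TNF-α converting enzyme, went from 51.0 ± 2.92 to 56.1 ± 1.86 CPM (SD, n = 3) and did not pass the test (edgeR adjusted p = 0.0901), and passed when scaled to library totals alone (0.0143). ADAM17 shares exon positions with IAH1 on the opposite strand.

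ADAM15 (chr1:155050566-155062775, plus strand), whose disintegrin domain carries an integrin-binding RGD motif, stood at 144, 155 and 134 CPM without DOX and at 89.9, 117 and 92.6 CPM with DOX in DMSO. The libraries labelled DOX with RepSox held 194, 162 and 156 CPM and those with RepSox alone 211, 201 and 194 CPM. DOX libraries in DMSO were thus the lowest of the HT-29 libraries and RepSox libraries the highest. ADAM15 fell by 0.53 ± 0.095 on the log2 scale with DOX in DMSO (adjusted p = 0.000181, edgeR quasi-likelihood test).

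ADAM8 (chr10:133262403-133276868, minus strand), a sheddase best known from leukocytes, stood at 30.5, 30.6 and 26.0 CPM without DOX and at 18.1, 25.0 and 19.6 CPM with DOX in DMSO. The libraries labelled DOX with RepSox held 15.4, 15.7 and 13.3 CPM and those with RepSox alone 17.6, 18.1 and 17.97 CPM. All treated libraries were below the untreated ones, and the RepSox libraries, at 13.3 to 18.1 CPM, reached up to the lowest library with DOX in DMSO. ADAM8 fell by 0.47 ± 0.105 on the log2 scale with DOX in DMSO (adjusted p = 0.00147, edgeR quasi-likelihood test). Of 8 leukocyte markers, 2 (CD14 and LYZ) reached a mean of 1 CPM in HT-29 iZEB1. Their summed level was 1314 to 1388 CPM without DOX and 1757 to 1783 CPM with DOX in DMSO, of which LYZ made up means of 1339 and 1760 CPM. PTPRC, the pan-leukocyte marker CD45, averaged 0.02 and 0.17 CPM in these groups and CD3E 0.02 and 0.03 CPM.

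ADAM19 (chr5:157395534-157575775, minus strand), meltrin-β, an enzyme that sheds neuregulins, followed the same order. It stood at 27.0, 26.9 and 29.9 CPM without DOX, 21.5, 23.0 and 22.7 CPM with DOX in DMSO, 15.9, 17.3 and 14.9 CPM in the libraries labelled DOX with RepSox and 18.6, 18.9 and 16.3 CPM with RepSox alone. The untreated, DOX and RepSox groups were separated from each other, and the RepSox groups overlapped. ADAM19 fell by 0.32 ± 0.083 on the log2 scale with DOX in DMSO (adjusted p = 0.00479, edgeR quasi-likelihood test).

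Among ADAMTS genes, ADAMTS6 (chr5:65148736-65481920, minus strand) was the most abundant in HT-29 iZEB1. It stood at 41.0, 38.8 and 41.1 CPM without DOX and at 59.3, 50.9 and 64.1 CPM with DOX in DMSO. The other groups held 38.6, 43.7 and 45.5 CPM (labelled DOX with RepSox) and 38.9, 39.8 and 41.2 CPM (RepSox alone), overlapping the untreated group. The rise with DOX in DMSO was 1.45-fold (log2 0.53 ± 0.082 SE, adjusted p = 3.84e-05, edgeR quasi-likelihood test).

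ADAMTS17 (chr15:99971589-100342005, minus strand) ran the other way at a lower level, with 2.12, 2.49 and 1.83 CPM without DOX and 1.02, 1.33 and 1.05 CPM with DOX in DMSO. The libraries labelled DOX with RepSox held 3.44, 3.05 and 3.23 CPM and those with RepSox alone 3.38, 3.13 and 3.34 CPM, above every DMSO library. ADAMTS17 fell by 0.91 ± 0.183 on the log2 scale with DOX in DMSO (adjusted p = 0.000506, edgeR quasi-likelihood test). ADAMTS13, which cleaves von Willebrand factor, rose 1.59-fold from 1.79 ± 0.104 to 2.85 ± 0.236 CPM (SD, n = 3, edgeR adjusted p = 0.0104). ADAM32, which lacks the catalytic zinc site, rose 1.74-fold at about 1 CPM (edgeR adjusted p = 0.0355), and without replicate 2 or 3 of the untreated group the adjusted p was 0.106 or 0.11. The call of ADAM32 was also lost without replicate 1 or 3 of the DOX group in DMSO (0.0922 or 0.096) and with no filter on low counts (0.0608, edgeR quasi-likelihood test).

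Of the members tested in HT-29 iZEB1, 8 were called in none of the 4 comparisons of treatments there, namely ADAM17, ADAM22, ADAMTS7, MMP11, MMP13, MMP21, MMP25 and MMP28. ADAM22, an ADAM without catalytic activity that acts in neuronal adhesion, averaged 28.6, 28.3, 30.1 and 28.4 CPM in the untreated, DOX, labelled DOX with RepSox, and RepSox groups. The other low members of this set, from ADAMTS7 to MMP28, averaged 0.13 to 1.62 CPM in these groups. ADAMTS7 (adjusted p = 0.0681 with DOX in DMSO) was called higher with library totals alone (0.044), no filter on low counts (0.0273) and each count halved (0.0495). It was also called without replicate 3 of the untreated group (0.0117) or of the DOX group in DMSO (0.0405). Without replicate 1 of the RepSox group, MMP13 was called lower with RepSox without DOX (0.0316, edgeR quasi-likelihood test).

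Next, libraries labelled DOX with RepSox were compared with those given DOX in DMSO, a comparison of RepSox under DOX as far as the DOX label holds. TIMP2 fell 4.20-fold, all 3 tested TIMPs fell, and MMP15 and ADAMTS17 rose at least 2-fold. Of 28 members 19 passed, 6 higher and 13 lower, where 52.2% of all genes passed (26.8% higher and 25.5% lower). The log2 changes were -2.07 ± 0.076 for TIMP2 (adjusted p = 2.37e-13), -0.83 ± 0.112 for TIMP1 (5.33e-06) and -0.73 ± 0.142 for TIMP4 (0.000287, edgeR quasi-likelihood test). TIMP1 stood at 74.7, 59.7 and 60.6 CPM in the libraries labelled DOX with RepSox, below the 3 libraries with DOX in DMSO. This comparison shares its DOX libraries in DMSO with the one above, ZEB1 differed 23.8-fold between its groups, and the part of ZEB1 in these changes was not tested.

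MMP14 fell by 0.98 ± 0.112 and MMP15 rose by 1.02 ± 0.081 on the log2 scale between these groups (adjusted p = 6.54e-07 and 5.52e-09, edgeR quasi-likelihood test). ADAM9 fell by 0.47 ± 0.056, ADAMTS6 by 0.46 ± 0.082 and ADAMTS13 by 0.71 ± 0.198 on the same scale. ADAM15, MMP7 and ADAMTS17 rose by 0.77 ± 0.095, 0.64 ± 0.096 and 1.503 ± 0.176. Of the 14 members called with DOX in DMSO, ADAM8 and ADAM19 had the same sign here, with log2 changes of -0.51 ± 0.109 and -0.49 ± 0.085. ADAM10 had a log2 difference of -0.16 ± 0.067 and missed the threshold (edgeR adjusted p = 0.051), and it passed with DESeq2 size factors (0.0499) and with DESeq2 itself (0.045). MMP24, the membrane-type MT5-MMP, was at the threshold (log2 -0.35, edgeR adjusted p = 0.0497) and its call was lost in 10 of the alternatives tried, with adjusted p up to 0.215.

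**Figure D2:**
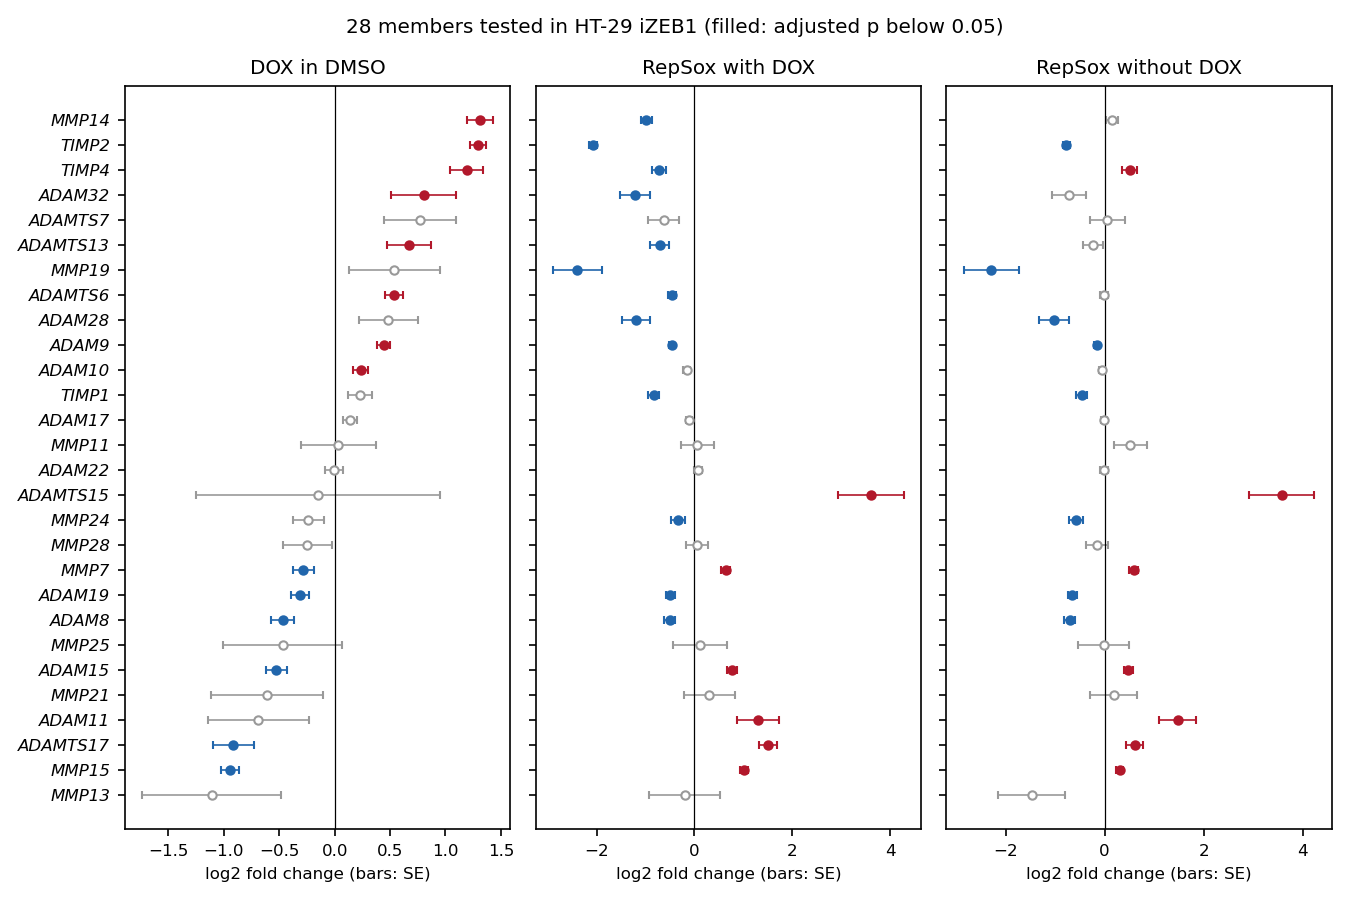
Each point is the log2 fold change of 1 of the 28 members tested in HT-29 iZEB1, with its SE as a bar, in 3 comparisons that share libraries (filled, adjusted p below 0.05; red higher, blue lower; the x axes differ). TIMP2, TIMP4 and MMP14 are on the right with DOX in DMSO and on the left for RepSox with DOX (the libraries labelled so), MMP15 and ADAMTS17 the reverse, and ADAM8 and ADAM19 are on the left in all 3.

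RepSox was also compared with DMSO without DOX. TIMP1, TIMP2, ADAM8 and ADAM19 fell and MMP7, MMP15, ADAM15 and ADAMTS17 rose. Of 28 members 15 passed, 7 higher and 8 lower, where 25.3% of all genes passed (12.5% higher and 12.8% lower). TIMP2 fell by 0.77 ± 0.077 on the log2 scale (adjusted p = 8.38e-07), ADAM8 by 0.70 ± 0.107 (9.14e-05), ADAM19 by 0.65 ± 0.084 (1.75e-05) and TIMP1 by 0.46 ± 0.112 (0.00516, edgeR quasi-likelihood test). TIMP1 stood at 74.5, 71.2 and 69.6 CPM with RepSox alone, below all untreated libraries. MMP7 rose 1.501-fold (adjusted p = 0.000178), ADAM15 1.39-fold (0.00103), ADAMTS17 1.52-fold (0.0109) and MMP15 1.23-fold (0.00893, edgeR quasi-likelihood test). Without replicate 3 of the untreated group the adjusted p of ADAMTS17 and of MMP15 was 0.0603 and 0.0605, and members called numbered 11.

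TIMP4 was the single TIMP that rose in RepSox alone (1.42-fold, edgeR adjusted p = 0.0207), and its call was lost without replicate 3 of either group (0.0695 and 0.0813). MMP14 did not pass, with a log2 difference of 0.15 ± 0.121 (edgeR adjusted p = 0.416). MMP24 fell from 5.86, 4.78 and 5.07 CPM to 3.61, 3.80 and 3.18 CPM, 1.49-fold lower without overlap (edgeR adjusted p = 0.00562). MMP24 shares exon positions with MMP24OS on the opposite strand. ADAM9 fell 1.12-fold (edgeR adjusted p = 0.0421) and lost its call in 7 of the alternatives tried, with adjusted p up to 0.153.

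Several members of very low level in HT-29 iZEB1 also moved with RepSox. MMP19, a secreted MMP also found in normal epithelia, went from 0.40, 0.62 and 0.79 CPM to 0, 0.26 and 0.11 CPM without DOX (edgeR adjusted p = 0.00467), a group total of 64 against 13 counts. Its group labelled DOX with RepSox totalled 18 counts against 104 with DOX in DMSO (edgeR adjusted p = 0.000462). ADAMTS15, a proteoglycan-cutting enzyme, rose from a total of 4 counts to 52 without DOX, and from 4 with DOX in DMSO to 49 in the libraries labelled DOX with RepSox (edgeR adjusted p = 0.000473 and 0.000116), and remained below 0.61 CPM in every HT-29 library. DESeq2 gave no adjusted p for ADAMTS15 without DOX and so did not call it. ADAM28 fell and ADAM11 rose in both RepSox comparisons, all at mean levels of 0.22 to 2.23 CPM. Without DOX the ADAM28 call was lost when replicate 2 of the untreated group or replicate 1 of the RepSox group was left out (0.078 and 0.0919). In the libraries labelled DOX with RepSox the call of ADAM11 was lost without replicate 1 of the DOX group in DMSO (0.076, edgeR quasi-likelihood test).

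Within RepSox, the libraries labelled DOX were compared with those without DOX. No member passed among 28 tested, and 0.477% of all genes passed (0.0942% higher and 0.383% lower, edgeR quasi-likelihood test). At an unadjusted p under 0.05 there were 6 members and 14.1% of all genes. DESeq2 also called 0 members. ADAM15 had a log2 difference of -0.24 ± 0.094 (adjusted p = 0.277) and MMP15 one of -0.23 ± 0.079 (0.238, edgeR quasi-likelihood test). Leaving out replicate 1 of the libraries labelled DOX with RepSox, both were called lower (0.0231 and 0.0252) and 1670 genes passed in place of 81. TIMP2 differed by 0.00 ± 0.078 and MMP14 by 0.18 ± 0.118 on the log2 scale, neither called. ZEB1 itself was 2.98-fold higher in these libraries than with RepSox alone (edgeR adjusted p = 1.37e-07), against 44.3-fold in DMSO.

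The difference between the DOX effects with RepSox and in DMSO was tested as an interaction, which also rests on the libraries labelled DOX with RepSox, and 7 of 28 members passed, 2 higher and 5 lower, where 22.6% of all genes did (13% higher and 9.61% lower). The DOX effect with RepSox was lower for TIMP2 (-1.30 ± 0.107 on the log2 scale, adjusted p = 6.07e-08), TIMP4 (-1.23 ± 0.209, 0.000265) and MMP14 (-1.13 ± 0.165, 5.51e-05, edgeR quasi-likelihood test). It was lower for ADAMTS6 by -0.44 ± 0.117 and ADAM9 by -0.31 ± 0.079 too. For MMP15 (0.72 ± 0.113, edgeR adjusted p = 0.000118) and ADAMTS17 (0.90 ± 0.242, 0.0109) it was higher. ADAM15 (edgeR adjusted p = 0.13) and TIMP1 (0.107) did not pass. Without a filter on low counts both did (0.035 and 0.00671), as did ADAM15 without replicate 2 of the DOX group in DMSO (0.00847) and TIMP1 without replicate 1 of that group (0.0475) or of the libraries labelled DOX with RepSox (0.0218, edgeR quasi-likelihood test).

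**Figure D3:**
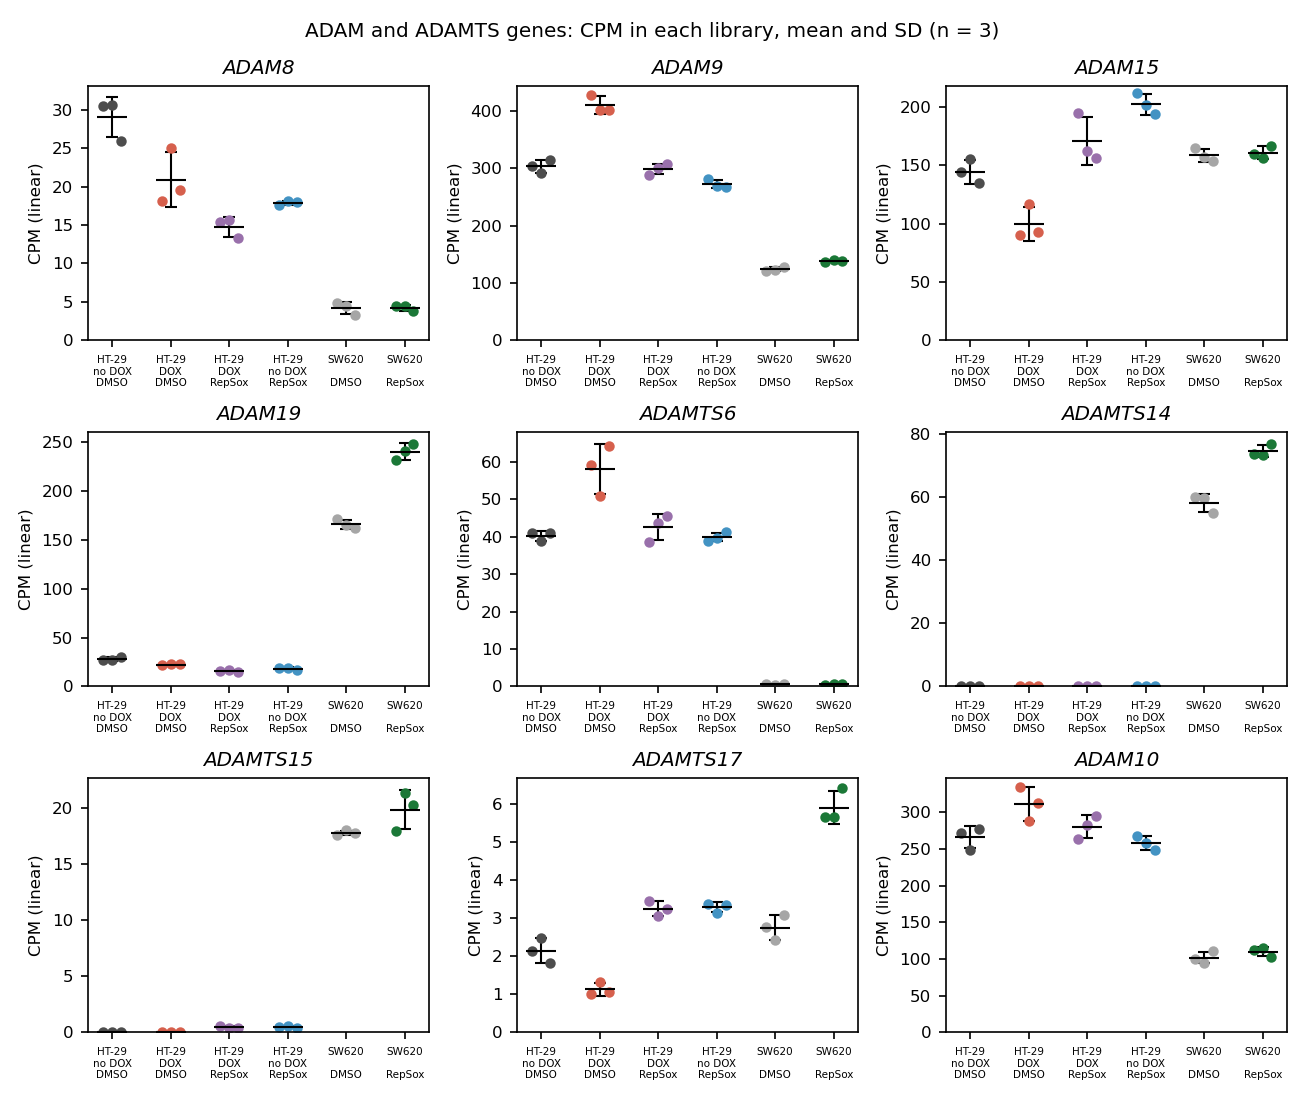
Points are CPM in each of the 18 libraries (linear axis from 0) for 5 ADAM and 4 ADAMTS genes, by group, with the mean and SD of 3 libraries as lines. ADAM9 and ADAMTS6 were highest with DOX in DMSO, ADAM19 was 162 to 248 CPM in SW620 and at most 29.9 CPM in HT-29, and ADAMTS14 and ADAMTS15 stood near 0 in HT-29.

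SW620 asks what RepSox does in a line whose ZEB1 is not driven by DOX (21.5 CPM in DMSO and 23.7 CPM in RepSox). TIMP3, ADAMTS17 and ADAM19 rose and MMP19 and TIMP1 fell. Of 31 members tested 9 passed, 7 higher and 2 lower, where 19.5% of 17147 genes passed (10.2% higher and 9.24% lower). The median log2 difference was 0.05 over the members and -0.01 over all genes.

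TIMP3 (chr22:32801701-32863043, plus strand) stood at 11.6, 11.97 and 14.6 CPM in DMSO and at 27.9, 28.3 and 28.3 CPM in RepSox, far apart (2.22-fold, log2 1.15 ± 0.080 SE, adjusted p = 1.06e-10, edgeR quasi-likelihood test). ADAMTS17 stood at 2.76, 2.41 and 3.07 CPM in DMSO and at 5.65, 5.64 and 6.40 CPM in RepSox (2.14-fold, edgeR adjusted p = 1.05e-06). ADAMTS17 was thus higher with RepSox in both lines, and the difference of its RepSox effect between the lines was not called. ADAM19 stood at 171, 165 and 162 CPM in DMSO and at 231, 241 and 248 CPM in RepSox (1.45-fold, log2 0.53 ± 0.044 SE, adjusted p = 2.35e-09, edgeR quasi-likelihood test).

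ADAMTS14 (chr10:70672803-70762441, plus strand), which removes the amino propeptide of procollagens, stood at 60.1, 59.7 and 55.1 CPM in DMSO and at 73.6, 73.6 and 76.9 CPM in RepSox (1.28-fold, edgeR adjusted p = 1.6e-05). ADAMTS12 rose 1.62-fold from 1.81 ± 0.236 CPM (SD, n = 3, edgeR adjusted p = 0.00553). TIMP2 (120, 126 and 133 CPM against 140, 145 and 142 CPM) and ADAM9 (121, 123 and 128 CPM against 136, 141 and 138 CPM) rose 1.12-fold each (edgeR adjusted p = 0.0144 and 0.0146). Scaled to library totals alone neither was called (0.0576 and 0.0592), nor when replicate 1 or 2 of the DMSO group or replicate 2 of the RepSox group was left out (0.0556 to 0.0975). Without replicate 3 of the DMSO group, ADAM10 and ADAMTS9 were called higher (0.00863 and 0.00359, edgeR quasi-likelihood test).

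TIMP1 stood at 171, 179 and 148 CPM in DMSO and at 124, 130 and 132 CPM in RepSox, without overlap (log2 -0.37 ± 0.056 SE, adjusted p = 2.48e-05, edgeR quasi-likelihood test). MMP19 (chr12:55835433-55842966, minus strand) stood at 9.03, 9.69 and 7.74 CPM in DMSO and at 5.34, 4.15 and 5.08 CPM in RepSox, fell by 0.86 ± 0.117 on the log2 scale (adjusted p = 6.12e-06, edgeR quasi-likelihood test), and shares exon positions with TMEM198B on the opposite strand. Both genes fell with RepSox in HT-29 iZEB1 as well. MMP14 and MMP15 did not pass in SW620 (6.92 ± 0.714 against 7.34 ± 0.955 CPM, and 11.6 ± 0.582 against 12.01 ± 0.477 CPM, SD, n = 3).

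The RepSox effects of the lines were set against each other in a fit over all 18 libraries, and 7 of 35 members differed, 4 higher and 3 lower in SW620, where 10.4% of 19107 genes did (5.39% higher and 4.99% lower). ADAM19 fell with RepSox in HT-29 iZEB1 without DOX and rose in SW620 (difference 1.17 ± 0.093 on the log2 scale, adjusted p = 3.0e-09, edgeR quasi-likelihood test). TIMP2 likewise fell in one and rose in the other (0.93 ± 0.091, 8.48e-08, edgeR quasi-likelihood test). The rise of TIMP2 in SW620 was small (log2 0.17) and was not called with library totals alone (edgeR adjusted p = 0.0576). ADAM8 fell in HT-29 iZEB1 and stood at 4.24 ± 0.778 and 4.24 ± 0.386 CPM (SD, n = 3) in SW620 in DMSO and RepSox (difference 0.70 ± 0.183, edgeR adjusted p = 0.0134). ADAMTS15 (-3.42 ± 0.548), ADAM11 (-1.58 ± 0.424), ADAM15 (-0.46 ± 0.118) and ADAM9 (0.31 ± 0.070) were the other 4, with edgeR adjusted p from 7.82e-05 to 0.0147. The ADAMTS15 value rests on 4 counts in untreated HT-29 iZEB1, and the ADAM11 call was lost without replicate 2 of that group (edgeR adjusted p = 0.0594).

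In DMSO 29 of 35 members differed between SW620 and HT-29 iZEB1 without DOX, 15 higher and 14 lower in SW620, where 76.6% of all genes passed (40.1% higher and 36.5% lower). By the count rule, 28 members qualified within HT-29 alone and 31 within SW620 alone. ADAMTS9, ADAMTS12, ADAMTS14, ADAMTS18, ADAMTS20, MMP17 and TIMP3 entered only through SW620, and TIMP4, ADAM28, MMP13 and MMP28 only through HT-29. Their calls and directions here follow in large part from that selection. Of the 35 members tested, 27 passed with at least 2-fold, where 42.2% of all 19107 genes tested did. SW620 held more TIMP2, TIMP3, ADAM19, ADAMTS14, ADAMTS15 and MMP19, and HT-29 iZEB1 more MMP7, MMP15, TIMP4, ADAM8 and ADAMTS6. The lines differ in origin, and only HT-29 carries the inducible ZEB1, so the source of these differences was not tested.

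Of the MMPs, MMP7 was 44.2-fold lower in SW620, at 0.765, 0.899 and 0.805 CPM (log2 -5.47 ± 0.143 SE, adjusted p = 3.2e-21, edgeR quasi-likelihood test), and MMP15 10.1-fold lower, at 11.4, 12.2 and 11.1 CPM (edgeR adjusted p = 1.35e-21). MMP24 was 4.40-fold lower, and MMP28, a member through HT-29 alone, 18.4-fold lower. MMP14 was not called (7.02, 7.58 and 6.16 CPM in SW620, log2 difference 0.18 ± 0.124 SE, edgeR adjusted p = 0.194), but was with scaling to library totals alone (0.028), a scaling that moved the median of all genes from 0.06 to 0.18. MMP19 was 14.6-fold higher in SW620 (edgeR adjusted p = 2.13e-13). MMP17, a membrane-type MMP anchored by a lipid, had 188 counts in SW620 and 0 in HT-29 iZEB1, at least 56.5-fold higher against a floor of 3 counts over the group. MMP13 had 39 counts in HT-29 iZEB1 and 0 in SW620, at least 14.4-fold lower.

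Of the inhibitors, TIMP1 was 1.69-fold and TIMP2 4.35-fold higher in SW620 (edgeR adjusted p = 3.8e-07 and 6.8e-20). TIMP3 had 1498 counts in SW620 against 0, at least 449.8-fold higher on the same floor. TIMP4, a member through HT-29 alone, was 16.5-fold lower, at 0.13, 0.13 and 0.15 CPM. Summed over all 4, TIMP transcripts were 130 ± 7.40 CPM in HT-29 iZEB1 and 306 ± 11.1 CPM in SW620 in DMSO, and the 11 MMPs 169 ± 7.75 and 32.2 ± 1.93 CPM (SD, n = 3).

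Of the ADAMs, ADAM19 was 5.94-fold higher in SW620 (edgeR adjusted p = 2.89e-21). ADAM8, ADAM9, ADAM10 and ADAM17 were 6.85-fold, 2.45-fold, 2.61-fold and 2.25-fold lower (edgeR adjusted p from 1.21e-17 to 1.43e-14). ADAM10 stood at 100, 95.1 and 110 CPM and ADAM17 at 21.9, 21.7 and 24.3 CPM in SW620 in DMSO. ADAM15, at 164, 157 and 154 CPM, and the catalytically inactive ADAM22 did not pass (edgeR adjusted p = 0.154 and 0.135). Both calls turned in some alternatives, ADAM15 to higher with library totals alone (0.00547) and ADAM22 to lower without replicate 3 of SW620 (0.0266). ADAM28 had 170 counts in HT-29 iZEB1 and 0 in SW620, at least 62.9-fold lower.

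Of the ADAMTS genes, ADAMTS14 averaged 58.3 CPM in SW620 and 0.16 CPM in HT-29 iZEB1 (log2 8.48 ± 0.168 SE). It is a member through SW620 alone, so that this direction follows in large part from the selection. ADAMTS15 stood at 17.6, 18.01 and 17.8 CPM in SW620 and had 4 counts in all in HT-29 iZEB1 (edgeR adjusted p = 3.33e-20). ADAMTS9, ADAMTS20 and ADAMTS12 had 411, 355 and 214 counts in SW620 and 0 in HT-29 iZEB1, at least 123-fold, 107-fold and 64.3-fold higher. ADAMTS18 had 75 against 2 counts (ratio 33.8, 95% counting interval 9.03 to 284). ADAMTS6 ran the other way, 66.5-fold lower in SW620 at 0.64, 0.44 and 0.73 CPM (edgeR adjusted p = 1.76e-22). ADAMTS13, at 6.05, 4.65 and 4.38 CPM, was 2.80-fold higher (edgeR adjusted p = 4.58e-08), and ADAMTS7 3.56-fold lower at under 1 CPM. ADAMTS17 and MMP21 passed narrowly with overlapping groups (edgeR adjusted p = 0.0406 and 0.0431), and lost their calls in 8 and 5 of the alternatives tried (up to 0.241 and 0.195).

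**Figure D4:**
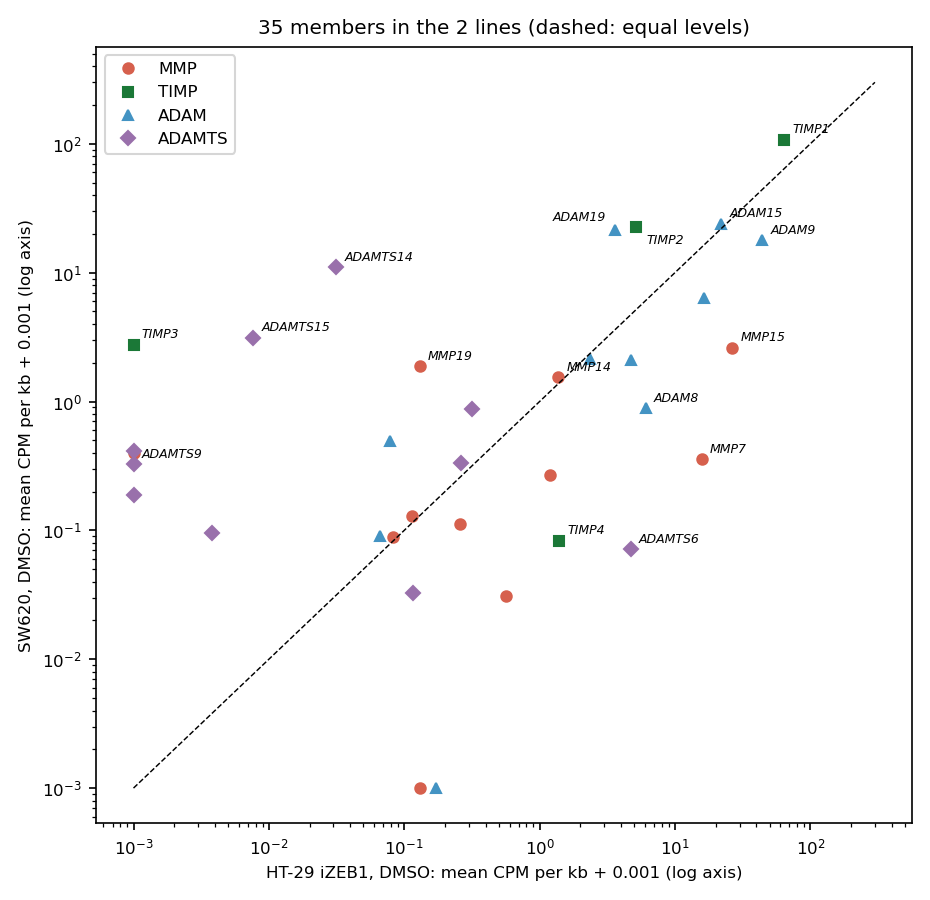
Each point is 1 of the 35 members, with its mean CPM per kb of exon plus 0.001 in HT-29 iZEB1 without DOX (x, log axis) and in SW620 (y, log axis), both in DMSO, 3 libraries each. TIMP1 is the highest in both lines, MMP7, MMP15 and ADAMTS6 lie below the line of equal levels, and ADAMTS14, ADAMTS15 and TIMP3 far above it.

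Levels of different genes were compared per kb of exon, in HT-29 iZEB1 without DOX and in SW620, both in DMSO. In this HT-29 iZEB1 group, TIMP1 was highest at 63.8 ± 6.16 CPM per kb, followed by ADAM9 at 43.9 ± 1.62, MMP15 at 26.4 ± 2.16, ADAM15 at 21.9 ± 1.55, and ADAM10 and MMP7 at 16.5 ± 0.930 and 15.7 ± 0.699 (SD, n = 3), the last 2 overlapping. In SW620, TIMP1 was again highest at 108 ± 10.5 CPM per kb, followed by ADAM15, TIMP2 and ADAM19 at 24.0 ± 0.839, 22.5 ± 1.17 and 21.5 ± 0.604 (SD, n = 3), whose neighbours overlapped. These orders depend on the length used. Per kb of the longest transcript HT-29 iZEB1 held TIMP1 at 89.8, ADAM9 at 79.0, ADAM15 at 32.0, MMP7 at 27.6, MMP15 at 27.5 and ADAM10 at 23.3 CPM per kb, so that MMP15 was the highest MMP by exon length and level with MMP7 by transcript length. In SW620 ADAM9, at 32.2 CPM per kb of the longest transcript, then stood above ADAM19 at 25.6.

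Genes that work with these proteases were described from lists of partners, substrates and regulators. Of 10 partners of ADAM10 and ADAM17, 1 rose and 2 fell with DOX in DMSO (median log2 change 0.07), where 19.2% of all genes rose and 21.1% fell (median 0.00). RHBDF2 (iRhom2, which carries ADAM17 to the surface) fell 2.16-fold from 40.1 to 18.5 CPM (edgeR adjusted p = 6.71e-09), TSPAN15 fell 1.30-fold and TSPAN5 rose 1.25-fold, both tetraspanins that escort ADAM10. In the libraries labelled DOX with RepSox, RHBDF2 was 1.75-fold higher and RHBDF1 and TSPAN5 1.56-fold and 1.48-fold lower than with DOX in DMSO. Of 21 tested substrates that ADAM10 and ADAM17 shed, 8 rose and 6 fell with DOX in DMSO (median log2 change 0.02), beside the same 19.2% and 21.1% of all genes. CXCL16 fell 5.24-fold, syndecan SDC1 2.06-fold and amphiregulin AREG 1.95-fold, and the Notch ligand JAG1 rose by 1.00 on the log2 scale (edgeR adjusted p from 8.76e-12 to 2.26e-07). Between the libraries labelled DOX with RepSox and those with DOX in DMSO, the same 4 genes had log2 changes of 2.12, 1.08, 1.55 and -1.04.

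Of 5 tested matrix and plasma substrates of ADAMTS enzymes, 4 rose and 0 fell with DOX in DMSO (median log2 change 0.73), where 19.2% of all genes rose and 21.1% fell. Thrombospondin THBS1 rose 1.92-fold, biglycan BGN 1.66-fold and perlecan HSPG2 1.34-fold (edgeR adjusted p = 1.59e-09, 0.000838 and 0.000873). In the libraries labelled DOX with RepSox 4 of the 5 were lower than with DOX in DMSO (median -0.69), where 25.5% of all genes were lower. Of 13 AP-1 and ETS factors, known regulators of MMP genes, 5 rose and 3 fell with DOX in DMSO (median log2 change -0.07), and ETV1 and ETS1 rose 5.22-fold and 2.57-fold while FOS and FOSL1 fell 1.80-fold and 1.55-fold. FURIN, which activates MMP14 and several ADAM precursors, was lower with RepSox in the libraries labelled DOX (1.45-fold), without DOX (1.24-fold) and in SW620 (1.22-fold). In these comparisons 1, 1 and 2 of the 5 proprotein convertases rose (PCSK6, PCSK5, and PCSK5 with PCSK7), and 2, 1 and 1 fell. Of all genes 26.8%, 12.5% and 10.2% rose and 25.5%, 12.8% and 9.24% fell. BMP1, a procollagen C-proteinase, was the single tested gene of 9 other metzincins in HT-29 iZEB1 and rose 1.25-fold with DOX in DMSO (edgeR adjusted p = 0.0152).

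In SW620 10 of 20 tested shed substrates rose and 1 fell with RepSox (median log2 change 0.15), where 10.2% of all genes rose and 9.24% fell. With library totals alone the share of higher calls among all genes there went from 52.5% to 39.5%. Epiregulin EREG rose 2.39-fold, JAG1 1.83-fold, L1CAM 1.63-fold and AREG 1.49-fold (edgeR adjusted p from 7.4e-13 to 0.000206). Of 13 AP-1 and ETS factors 5 rose and 5 fell (median 0.00). FOSL1 and ETS1 rose 1.63-fold and 1.61-fold and FOS fell 1.44-fold, and ETV1, ETV4, JUNB and JUND were the other 4 that fell. ADAMTSL5 and ADAMTSL2, ADAMTS-like proteins without a protease domain, fell 1.99-fold and 1.40-fold. Between the lines, 6 of 22 tested shed substrates were higher and 14 lower in SW620, where 40.1% and 36.5% of all genes were. In DMSO, SW620 held L1CAM at 87.2 against 0.04 CPM and TNFRSF1B at 137 against 0.59 CPM. BTC was at 0.29 against 8.28 CPM and NOTCH2 at 9.21 against 118 CPM. ADAMTSL2 was at 63.6 against 0.09 CPM and THSD4 at 1.10 against 52.6 CPM, and fibronectin FN1 at 59.4 against 1.36 CPM. Of 9 inhibitors other than TIMPs, 2 were tested in HT-29 iZEB1 and 0 were called in its 4 treatment comparisons, and between the lines 4 were tested and RECK and A2M were higher in SW620.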

How the data were processed

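The authors deposited one table of whole-number counts of reads per gene symbol for 18 libraries, not normalised. Tools named in the submitters' processing notes are HISAT2 2.2.0 (alignment), featureCounts 2.0.0 (counting), FastQC 0.11.9 and DESeq2 1.34.0, with GRCh38.p13 as the build. Of settings, strand and annotation, nothing is stated in the sources used here. Gene positions came from GENCODE 29, matched by symbol, and promoter sequences from RefSeq. Per the labels, 3 libraries form each of 6 groups.

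Counts were tested with edgeR 4.0.16 (TMM scaling, filterByExpr with a minimum count of 10, quasi-likelihood test) in R 4.3.3, with Benjamini-Hochberg adjustment over all genes tested and a threshold of 0.05. HT-29 iZEB1 (12 libraries, 16978 genes), SW620 (6 libraries, 17147 genes) and all 18 libraries (19107 genes, for comparisons between lines) were fitted apart. The biological coefficient of variation was 7.82%, 5.10% and 7.04%. The code was tested on simulated data. CPM were counts divided by TMM-scaled library sizes over 18 libraries, CPM per kb divided these by exon length, and SE is that of the log2 change. Members and lists were chosen with earlier results of these data known. Every member could be named, and values in each library were given for members that reached 5 CPM in a group and a called change of 1.5-fold. Of each list, up to 4 called genes per comparison with 5 CPM were given with values by size of change. Some others were named without values, among them RECK and A2M, which were below 5 CPM.

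Alternatives were DESeq2 1.42.0 and its size factors, library totals, other filters, a replicate block, fewer groups and leaving out each library. Within groups, libraries differed beyond sampling noise (chi-square divided by degrees of freedom, 3.93 to 42.6), so none was merged. Low counts were more often even than odd (54.69% of values from 1 to 20), so halved counts were added as an alternative after the data were seen. The cause was not tested.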

Additional observations from a re-analysis of the deposited data

Results flagged for a closer look

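For 4 of the 7 members that passed, those at 5 CPM or more and past 1.5-fold, the DOX effect with RepSox differed from that in DMSO by a test of the difference itself (edgeR quasi-likelihood test, 3 libraries a group). The log2 difference was -1.30 for TIMP2, -1.23 for TIMP4, -1.13 for MMP14 and 0.72 for MMP15. In the libraries labelled DOX with RepSox ZEB1 was at 16.0 CPM, against 378 CPM with DOX in DMSO, and its part in these differences was not tested.

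For 4 of the 7 members that passed, by the same limits, the RepSox effect in SW620 differed from that in HT-29 iZEB1 without DOX in the same kind of test. The log2 difference was 1.17 for ADAM19, 0.93 for TIMP2 and 0.70 for ADAM8, each fell in HT-29 iZEB1, and ADAM19 and TIMP2 rose in SW620. The rise of TIMP2 there lost its call with library totals alone and in some fits that left out a library. For ADAMTS15, which had 4 counts in all in untreated HT-29 iZEB1, the log2 difference was -3.42.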

How the results depend on the processing

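The 42 called member changes of at least 1.5-fold, for members that reached 5 CPM in a compared group, kept their direction and call under every alternative tried (629 values). Counts of members called stayed within 1.5 times of the reported ones except for DOX within RepSox, where 0 members became 1 (ADAM15) without the low-count filter and 0 to 2 when a library was left out. All genes called there numbered 81, and became 584 without that filter, 293 with DESeq2 and 27 to 1670 when a library was left out, 1670 without replicate 1 of the libraries labelled DOX with RepSox. Dividing by the longest transcript in place of all exons moved 15 of 21 levels per kb by more than 1 SD. The RepSox effects of the lines differed for 1982 of all genes, and for 3016 with only the compared groups fitted. Library totals alone moved the share of higher calls among all genes from 47.6% to 59.5% with DOX in DMSO, from 57.4% to 47.0% for the interaction and from 52.5% to 39.5% with RepSox in SW620.

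Replicate numbers did not pair the libraries: deviations of same-numbered libraries correlated with r from -0.39 to 0.29 (median 0.03) over 45 pairs of libraries. With a replicate block, members called numbered 14 for DOX in DMSO, 0 for DOX within RepSox, 19 and 15 for RepSox with and without DOX, 7 for the interaction, 9 for RepSox in SW620, 28 between the lines and 7 for the difference of RepSox effects. Members near 1 CPM had under 50 counts in most libraries, and genes with exons on the opposite strand are uncertain.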
